A study of Arabidopsis thaliana with 9 samples.

Results

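The genes listed under an ERF number form most of the ethylene response factor family of Arabidopsis thaliana, and they are described here in leaves of a line labelled IAA26 stable (called stabilised), a line labelled IAA26 knockout (called knockout-labelled) and the wild type. Members were all rows of the deposited table whose name is ERF followed by a number, apart from 1 locus that is not reported here, which left 74 of 32833 genes. All 3 groups shared the natural accession Shahdara, an age of 9 weeks and leaf as the tissue, with 3 biological replicates a group by their labels, and the wild type was the control of both lines. The labels do not say whether each line is 1 transformant or several, what drives the stabilised protein, or how the knockout was made. Nothing is said about separate plants or pools, so p-values measure the spread between these libraries. IAA26 is an Aux/IAA protein, a repressor of auxin-responsive transcription that auxin normally marks for degradation, and the series was described as a screen of both lines for effects on development and defence.

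ERF proteins bind DNA through a single AP2 domain. Many of them recognise the GCC box of defence gene promoters, and the DREB-type members recognise a dehydration-responsive element instead. In leaves the family is known for rapid transcription after wounding, touch, cold, pathogen contact and ethylene. Members fall into groups by protein sequence: groups I to III are DREB-type, group VIII holds mostly repressors with an EAR motif, and group IX holds most activators of defence genes.

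Total exon reads per library ranged from 28585976 to 45346301, and 96.7% to 97.4% of them were unique to 1 position. IAA26 itself stood at 12.7, 9.81 and 10.4 RPKM (reads scaled for exon length and library depth) in the stabilised libraries, 16.7, 17.2 and 12.4 RPKM in the knockout-labelled ones and 17.5, 18.5 and 20.3 RPKM in the wild type. Both lines lay below the wild type without overlap, with a log2 fold change of -0.70 (SE 0.12, adjusted p = 0.0112) for the stabilised line and of -0.40 (SE 0.11, adjusted p = 0.120) for the knockout-labelled line. Transcript was thus present under the knockout label, and the label could not be checked at the level of RNA. The leaf markers RBCS1A, LHCB1.1 and LHCB2.1 summed to 3297, 7629 and 7840 RPKM in the stabilised libraries. Their sums were 3613 to 5525 RPKM in the knockout-labelled line and 5113 to 5942 RPKM in the wild type. Stabilised replicate 1 was thus the lowest library and far below the other stabilised ones. Flower and meristem markers summed to 3.82 to 8.81 RPKM in the stabilised line, 6.24 to 26.7 RPKM in the knockout-labelled line and 3.45 to 5.39 RPKM in the wild type. The highest of these sums belonged to knockout-labelled replicate 3, where the petal and stamen genes PI and AP3 stood at 8.44 and 4.46 RPKM.

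Of the 74 members, 24 averaged at least 10 RPKM over the 9 libraries, 22 averaged between 1 and 10 RPKM, and 28 averaged less than 1 RPKM. The member with the highest mean level was ERF107, also called DEWAX, a repressor of leaf wax synthesis. It stood at 119.9, 136 and 154 RPKM in the stabilised libraries, 110.0, 133 and 124 RPKM in the knockout-labelled ones and 36.1, 119.3 and 90.6 RPKM in the wild type. The 3 groups overlapped, and wild type replicate 1 was the lowest library. Its close relative ERF106 (DEWAX2) averaged 74.1 ± 10.7, 76.9 ± 10.5 and 58.6 ± 10.3 RPKM in the stabilised, knockout-labelled and wild-type leaves (SD, n = 3 each), and neither gene was called by edgeR in the fit of all 9 libraries. ERF4, an EAR-motif repressor of group VIII, averaged 106.7 ± 21.8, 94.5 ± 13.1 and 77.8 ± 3.38 RPKM in the same order. ERF3, a repressor of the same group, was the steadiest of the 8 most abundant members, between 23.0 and 30.4 RPKM in all 9 libraries. ERF15, a positive regulator of abscisic acid responses, averaged 33.1 ± 9.50, 61.4 ± 15.4 and 36.1 ± 7.74 RPKM, and the stabilised libraries lay below the knockout-labelled ones without overlap at an adjusted p of 0.0938. ERF060 averaged 17.99 ± 7.82, 30.1 ± 5.95 and 32.1 ± 7.91 RPKM. The other abundant members, ERF2 and ERF104, are described below.

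**Figure D1:**
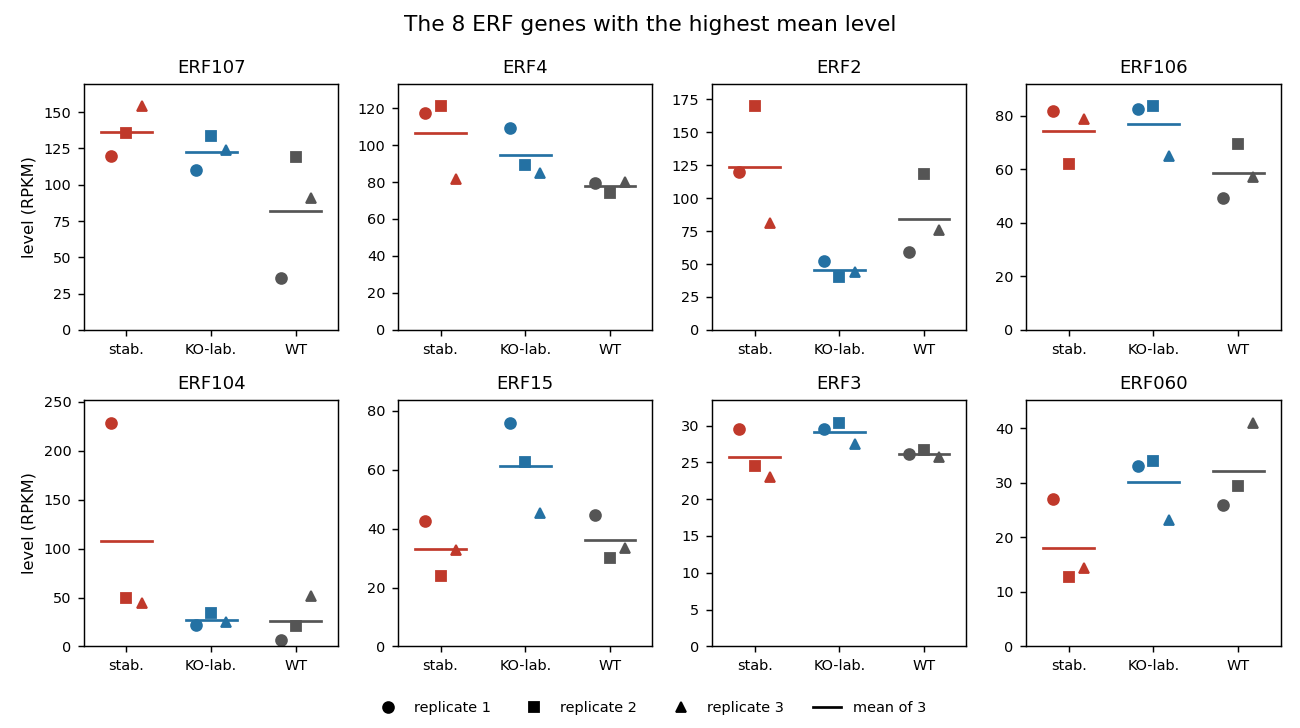
Level in RPKM (vertical axes, from 0, one scale per panel) of the 8 ERF genes with the highest mean, in the stabilised, knockout-labelled and wild-type leaves; points are libraries, marker shapes are replicate numbers and bars are means of 3. ERF3 stays between 23.0 and 30.4 RPKM, while ERF104 reaches 229 RPKM in stabilised replicate 1.

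Stabilised and knockout-labelled leaves differed in 12 members, more than either line differed from the wild type. Of the 54 members with enough reads to be tested, 12 were higher in the stabilised line and 0 were lower, which is 22.2% of those tested. Over all 19409 genes tested, 4.87% were called higher and 2.09% were called lower. Without adjustment 26 members had a p under 0.05 upwards and 5 downwards. The share of all genes under that unadjusted p is not given, here or beside the unadjusted counts below. Such counts therefore only describe the members. DESeq2 called 23 higher and 4 lower, where it called 10.5% and 6.88% of all genes. Limma-voom called 5 higher and 0 lower, where it called 3.76% and 1.61% of all genes. The median log2 fold change of the 54 was 0.84, against 0.00 over all genes. The 12 genes came from groups II, III, VIII, IX and X, and each of the 12 has a single exon in the reference annotation, as do 62 of the 74 members and 18.9% of all protein-coding genes.

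Among the 12, ERF098, ERF020, ERF109, ERF2 and ERF017 carry the G-box letters CACGTG in the 250 bases before the annotated start. Promoters of 4 of them are shown, because these members were called higher in stabilised than in knockout-labelled leaves and share the letters. The window of ERF017 lies inside the span of the neighbouring gene ARF19 and is not shown, but its letters stay in the counts below. The sequences are from the RefSeq reference genome of the accession Columbia, build TAIR10.1, not from Shahdara. They are written 5′ to 3′ on the gene's own strand, so that the last base is next to the start, and capitals mark the G-box.

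ERF098, chr3:8290165-8290414 (- strand): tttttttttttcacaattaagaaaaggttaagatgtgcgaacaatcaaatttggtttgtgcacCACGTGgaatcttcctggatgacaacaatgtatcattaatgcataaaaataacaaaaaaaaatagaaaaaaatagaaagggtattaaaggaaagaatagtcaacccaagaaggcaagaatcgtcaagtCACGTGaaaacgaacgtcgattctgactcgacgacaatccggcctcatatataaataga
ERF2, chr5:19172957-19173206 (- strand): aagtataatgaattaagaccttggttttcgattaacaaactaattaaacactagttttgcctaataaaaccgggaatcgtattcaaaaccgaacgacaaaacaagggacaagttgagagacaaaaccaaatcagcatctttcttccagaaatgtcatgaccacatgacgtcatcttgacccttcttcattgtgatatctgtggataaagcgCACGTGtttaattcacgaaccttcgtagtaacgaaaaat
ERF109, chr4:16451626-16451875 (+ strand): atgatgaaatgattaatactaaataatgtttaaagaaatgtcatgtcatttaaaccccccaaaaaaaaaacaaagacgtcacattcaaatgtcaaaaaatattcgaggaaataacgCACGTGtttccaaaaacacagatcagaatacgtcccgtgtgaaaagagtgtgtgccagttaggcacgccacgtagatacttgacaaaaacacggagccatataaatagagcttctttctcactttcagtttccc
ERF020, chr1:26938119-26938368 (+ strand): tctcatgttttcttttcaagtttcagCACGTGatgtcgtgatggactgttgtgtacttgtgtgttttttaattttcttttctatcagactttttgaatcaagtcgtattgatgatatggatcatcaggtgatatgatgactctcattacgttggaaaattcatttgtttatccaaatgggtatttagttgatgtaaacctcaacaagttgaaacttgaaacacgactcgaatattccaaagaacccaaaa

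The first base of the G-box lies 187 and 59 bases before the start in ERF098, 39 bases before it in ERF2, 134 in ERF109 and 224 in ERF020. G-box letters, which read the same on both strands, were present in 6.49% of 27443 protein-coding promoters of that length, in 9 of the 74 members (12.2%), which are also 9 of the 54 tested (16.7%), and in 5 of the 12 (41.7%). The other members with a G-box were ERF095, ERF12, ERF15 and ERF4, none of which edgeR called in the fit of all 9 libraries. Other letters were searched on both strands in the same window. The W-box core TTGAC, a part of the element that WRKY factors bind, was in 44.9% of all promoters, 54.1% of the 74 members and 58.3% of the 12. The GCC box GCCGCC was in 1.87% of all promoters, 2.70% of the members and 8.33% of the 12. The dehydration-responsive core CCGAC was in 12% of all promoters, 12.2% of the members and 0 of the 12. A rapid stress response element, CGCGTT, was in 2.59% of all promoters, 5.41% of the members and 8.33% of the 12. The evening element AAATATCT was in 4.78%, 9.46% and 0 in the same order. These matches describe letters in a fixed window and are not sites shown to be bound.

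ERF098, a group IX gene on chromosome 3 (8289379 to 8290164) known from salt tolerance and ascorbate synthesis, stood at 3.12, 6.14 and 3.06 RPKM in the stabilised libraries, against 0.0719, 0.263 and 0.303 RPKM in the knockout-labelled ones. Every stabilised library was above every knockout-labelled one, at a log2 fold change of 4.45 (SE 0.65, adjusted p = 0.0161). The wild type lay between them, at 1.94, 1.33 and 0.567 RPKM. ERF13, an activator of the same group, had 8.33, 11.3 and 2.96 RPKM in the stabilised leaves and 0.203, 0.232 and 0.451 RPKM in the knockout-labelled leaves, a log2 fold change of 4.85 (SE 0.77, adjusted p = 0.0187). The groups were apart, with stabilised replicate 3 the lowest of its group, and the wild type had 0.342, 1.93 and 1.49 RPKM. ERF6, a substrate of the mitogen-activated kinases MPK3 and MPK6, had 110, 26.2 and 30.6 RPKM in the stabilised leaves and 2.45, 3.59 and 6.42 RPKM in the knockout-labelled leaves. It was 3.87 higher on the log2 scale (SE 0.73, adjusted p = 0.0284), with no overlap and with stabilised replicate 1 far above the other two.

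ERF2, an activator that binds the GCC box and the most abundant of the 12, had 119.9, 170.0 and 81.5 RPKM in the stabilised leaves, against 52.3, 39.9 and 43.99 RPKM in the knockout-labelled leaves. All 3 stabilised libraries were higher, at a log2 fold change of 1.65 (SE 0.33, adjusted p = 0.0315). ERF109, also named RRTF1, is known from redox signalling and from a link between jasmonate and auxin synthesis in roots. It had the largest fold change of the 12, with 27.3, 51.8 and 11.5 RPKM in the stabilised leaves and 0.367, 0.243 and 1.76 RPKM in the knockout-labelled leaves. The log2 fold change was 5.45 (SE 1.03, adjusted p = 0.0286) and the groups did not overlap. Only 50.9% of its reads were unique, since its span overlaps 2 other rows of the table, AT4G34412 by 301 bases and AT4G08985 by 661 bases. With unique reads alone the log2 fold change was 5.48. No source used here says whether counting used the strand, and without it the reads of genes that overlap cannot be told apart.

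ERF018, known as ORA47, regulates jasmonate synthesis genes in group III. Its levels were 33.1, 44.8 and 13.6 RPKM in the stabilised leaves and 4.51, 5.82 and 7.57 RPKM in the knockout-labelled leaves, a log2 fold change of 2.55 (SE 0.54, adjusted p = 0.0357) with no overlap. ERF020 of the same group had 1.71, 1.27 and 0.958 RPKM against 0.220, 0.316 and 0.176 RPKM, a log2 fold change of 2.63 (SE 0.49, adjusted p = 0.0277). The stabilised and wild-type libraries overlapped for this gene, and the knockout-labelled ones lay below both. ERF017 had 2.19, 1.86 and 0.481 RPKM in the stabilised leaves and 0.284, 0.116 and 0.325 RPKM in the knockout-labelled leaves, 2.80 higher on the log2 scale (SE 0.61, adjusted p = 0.0389). ERF11, a group VIII repressor that restrains ethylene synthesis genes, had 50.0, 50.3 and 17.9 RPKM against 11.4, 13.5 and 9.83 RPKM, 1.96 higher on the log2 scale (SE 0.43, adjusted p = 0.0389). In both genes stabilised replicate 3 was the lowest of its group and still above every knockout-labelled library.

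The remaining 3 genes belong to group II. ERF012, also called DREB26, had 1.05, 22.5 and 10.9 RPKM in the stabilised leaves and 0.181, 0.534 and 0.903 RPKM in the knockout-labelled leaves, a log2 fold change of 4.65 (SE 1.05, adjusted p = 0.0402). ERF013 had 0.529, 13.8 and 3.15 RPKM against 0.169, 0.0661 and 0.293 RPKM, a log2 fold change of 5.29 (SE 1.2, adjusted p = 0.0403). Stabilised replicate 1 was the lowest of its group in both genes, close to knockout-labelled replicate 3 for ERF012, and stabilised replicate 2 was the highest. Without stabilised replicate 2 the log2 fold changes were 3.64 for ERF012 and 3.55 for ERF013, and neither was called. ERF008, also called DEAR3, had 17.5, 31.2 and 22.8 RPKM against 11.2, 14.9 and 14.9 RPKM, a log2 fold change of 1.01 (SE 0.24, adjusted p = 0.0446).

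**Figure D2:**
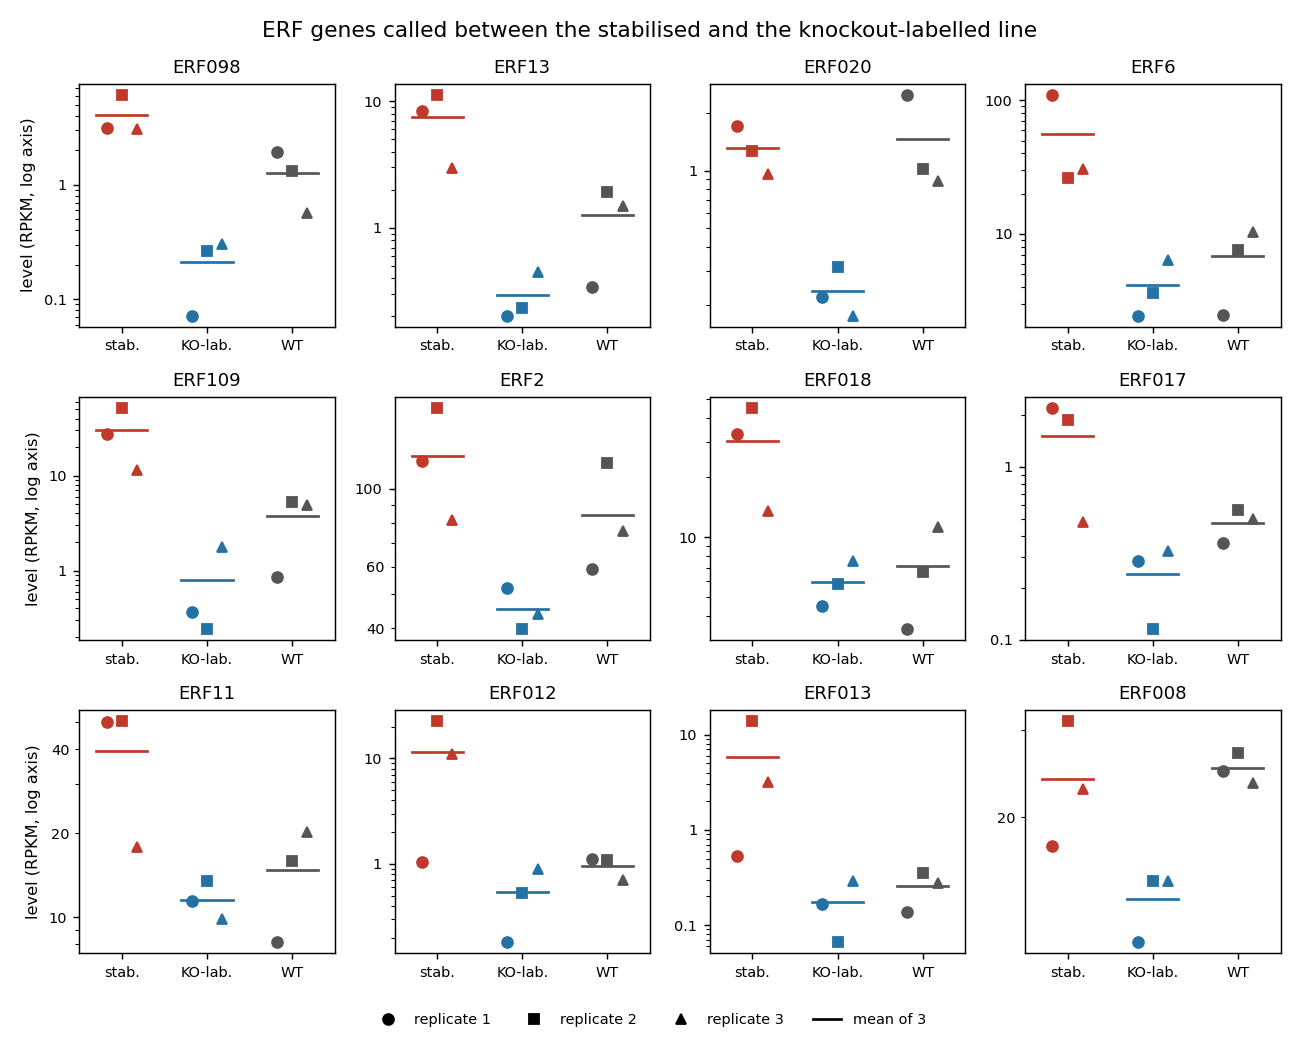
Level in RPKM (log axes, one scale per panel) of the 12 ERF genes called between stabilised and knockout-labelled leaves, with the wild type beside them; points are libraries, marker shapes are replicate numbers and bars are means of 3. In each panel the 3 stabilised libraries lie above the 3 knockout-labelled ones, and stabilised replicate 1 is closest to them for ERF012.

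This count depended on which libraries were in the fit. It was 0 higher without knockout-labelled replicate 1 and 0 higher without knockout-labelled replicate 2, where edgeR left 20 and 19 members upwards at an unadjusted p under 0.05 and called 3 and 8 genes in the whole table. It was 1, ERF098, without stabilised replicate 2, where 144 genes were higher and 14 lower in the whole table. It was 20 higher and 3 lower without stabilised replicate 1, where 2825 genes were higher and 2416 lower. It was 4 without knockout-labelled replicate 3, 6 without wild type replicate 2 and 6 without wild type replicate 3. In those fits 585, 585 and 517 genes of the whole table were higher.

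Against the wild type, the stabilised leaves had 6 members higher and 1 lower, 11.1% and 1.85% of the 54 tested, where all genes gave 5.09% higher and 3.78% lower. The one with the smallest p was ERF9, a group VIII repressor that restrains defence against necrotrophic fungi, on chromosome 5 (17806397 to 17807541). It had 2.85, 2.71 and 3.03 RPKM in the stabilised leaves, against 0.878, 0.729 and 0.799 RPKM in the wild type. The groups were far apart with little spread inside either, at a log2 fold change of 1.92 (SE 0.22, adjusted p = 0.00290). ERF9 was also the only call between any groups that held under each of the 16 alternative settings and left-out libraries, with adjusted p up to 0.0165. ERF015 of group II had 1.98, 3.41 and 4.01 RPKM in the stabilised leaves and 0.732, 1.22 and 1.19 RPKM in the wild type, 1.68 higher on the log2 scale (SE 0.34, adjusted p = 0.0229). Its groups did not overlap.

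The other 4 higher members were also among the 12 above. ERF6 was 3.06 higher on the log2 scale than in the wild type (SE 0.70, adjusted p = 0.0335), where it stood at 2.48, 7.59 and 10.3 RPKM. ERF018 was 2.18 higher (SE 0.53, adjusted p = 0.0408), with 3.44, 6.70 and 11.3 RPKM in the wild type. Both were apart from the wild type, whose replicate 1 was the lowest library in each case. ERF013 was 4.63 higher (SE 1.14, adjusted p = 0.0427) over wild-type levels of 0.139, 0.356 and 0.274 RPKM, and ERF13 was 2.66 higher (SE 0.67, adjusted p = 0.0458). The member that was lower was ERF010, also called DEAR2, with 14.1, 12.6 and 11.9 RPKM in the stabilised leaves and 16.6, 21.0 and 30.1 RPKM in the wild type. It fell by 0.73 on the log2 scale (SE 0.19, adjusted p = 0.0482), and its groups were apart. Just past the threshold came ERF012 at 3.72 (adjusted p = 0.0545), ERF025 at 1.60 (adjusted p = 0.0622) and ERF11 at 1.5 (adjusted p = 0.0646).

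DESeq2 called 15 higher and 3 lower in this comparison, where it called 9.32% and 7.73% of all genes. Limma-voom called 4 higher and 0 lower, where it called 4.72% and 3.56% of all genes. Before adjustment 19 members were upwards and 6 downwards under 0.05, and the median log2 fold change of the 54 was 0.48, against 0.01 over all genes. The groups were apart in 14 of the 54 members upwards and 3 of the 54 downwards. Over all 19409 genes they were apart in 2733 (14.1%) and 2761 (14.2%). In the stabilised against knockout-labelled comparison they were apart in 24 of the 54 upwards and 7 of the 54 downwards. Over all genes this held for 3156 (16.3%) and 2966 (15.3%). The count of 6 became 1 without stabilised replicate 2, without wild type replicate 1 or without wild type replicate 3. In those fits 394, 489 and 476 genes of the whole table were higher. The count became 2 without knockout-labelled replicate 1 or 2 (622 and 637 genes higher). It became 3 without knockout-labelled replicate 3 or wild type replicate 2 (848 and 716 genes higher), and 10 without stabilised replicate 1 (1998 genes higher).

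Knockout-labelled leaves differed from the wild type in 2 members. ERF9 was the higher one, at 2.32, 1.96 and 2.95 RPKM against 0.878, 0.729 and 0.799 RPKM, a log2 fold change of 1.48 (SE 0.22, adjusted p = 0.0242). Every knockout-labelled library exceeded every wild-type library, so ERF9 was above the wild type in both lines, and the 2 lines differed from each other by 0.44 (SE 0.21, adjusted p = 0.195). ERF020 was the lower one, at 0.220, 0.316 and 0.176 RPKM against 2.48, 1.02 and 0.881 RPKM in the wild type. It fell by 2.71 on the log2 scale (SE 0.49, adjusted p = 0.0405), and the groups were apart, with wild type replicate 1 the highest library. In the stabilised leaves it differed from the wild type by -0.09 (SE 0.43, adjusted p = 0.919). These calls are 1.85% of the 54 in each direction, where all genes gave 0.927% higher and 0.732% lower.

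Other members of this comparison did not pass the threshold in edgeR with all 9 libraries. ERF095, known as ESE1 from salt responses, had 0.299, 0.0391 and 0.120 RPKM in the knockout-labelled leaves, against 4.77, 7.61 and 0.449 RPKM in the wild type. The groups did not overlap, but wild type replicate 3 was close to the knockout-labelled libraries (fitted difference -4.89, SE 1.07, adjusted p = 0.0671, on the log2 scale). DESeq2 called it at -4.93 (adjusted p = 6.04e-05), and so did edgeR without wild type replicate 3, at -5.42 (adjusted p = 0.0459). ERF098 gave -2.66 (adjusted p = 0.0833), ERF008 -0.98 (adjusted p = 0.0844), ERF2 -1.0 (adjusted p = 0.149) and ERF13 -2.18 (adjusted p = 0.163). In the other direction ERF039 gave 1.27 (adjusted p = 0.0737), with 8.54, 7.13 and 6.28 RPKM in the knockout-labelled leaves and 3.80, 1.87 and 2.77 RPKM in the wild type. ERF037 gave 1.24 (adjusted p = 0.158) and ERF15 gave 0.65 (adjusted p = 0.180). Before adjustment 4 members were upwards and 8 downwards under 0.05. The groups were apart in 5 of the 54 tested members upwards and 10 of the 54 downwards. Over all 19409 genes they were apart in 2925 (15.1%) and 2768 (14.3%). DESeq2 called 2 higher and 7 lower, where it called 3.79% and 4.71% of all genes. Limma-voom called 1 higher and 0 lower, where it called 0.912% and 0.763% of all genes. ERF9 lost its call without stabilised replicate 3, knockout-labelled replicate 1 or 2, or any wild-type library (adjusted p up to 0.0942), and ERF020 lost its call without any library other than stabilised replicate 1 (adjusted p up to 0.158).

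Of the 12 members called between the 2 lines, 11 were above the wild type in the stabilised leaves and below it in the knockout-labelled leaves by their fitted log2 fold changes. The 12 were picked by a difference between the lines, which by itself favours wild-type values in between. The share over all genes called between the lines was not computed. None of the 11 was called by edgeR in the knockout-labelled line against the wild type, and 4 were called in the stabilised line. Both of those comparisons use the same wild-type libraries, so they are set side by side and not correlated. ERF13 gave 2.66 in the stabilised line and -2.18 in the knockout-labelled line, ERF109 gave 3.12 and -2.32, and ERF098 gave 1.79 and -2.66. The fitted distance from the wild type was larger on the stabilised side for ERF13 and ERF109, and on the knockout-labelled side for ERF098. ERF012 gave 3.72 and -0.93, ERF013 gave 4.63 and -0.66, ERF6 gave 3.06 and -0.81, ERF018 gave 2.18 and -0.37, ERF017 gave 1.72 and -1.07, and ERF11 gave 1.5 and -0.46. Their fitted distances were larger on the stabilised side. ERF2 gave 0.65 and -1.0, ERF008 gave 0.03 and -0.98, and ERF020 gave -0.09 and -2.71, with the larger distance on the knockout-labelled side. Whether the 2 distances of a gene differ in size was not tested.

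By group of the family, the higher calls lay in groups II, III, VIII, IX and X. Over all genes tested, 4.87% were called higher between the lines. In stabilised against wild-type leaves 5.09% were called higher and 3.78% lower. The groups are small, and differences between them were not tested. ERF105 counts in group IX and ERF019 in group III, although few of their reads are unique. In stabilised against knockout-labelled leaves 4 of 11 tested members of group IX were higher, with a median log2 fold change of 2.59, as were 3 of 6 in group II with a median of 1.62, 3 of 14 in group III with a median of 1.1, 1 of 8 in group VIII with a median of 0.11 and 1 of 3 in group X with a median of -0.54. None of 6 in group I was called, although their median was 1.44 and 4 had an unadjusted p under 0.05 upwards in edgeR. Against the wild type, group IX of the stabilised leaves had 2 of 11 higher and a median of 1.53, and group II had 2 of 6 higher, 1 lower and a median of 1.49. Group IX of the knockout-labelled leaves had 0 called and a median of -1.0, and before adjustment edgeR gave 1 member upwards and 4 downwards under 0.05. Groups VI and VI-L, relatives of the cytokinin response factors, spread least, with log2 fold changes between -0.47 and 0.30 in every comparison among their 5 tested members.

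**Figure D3:**
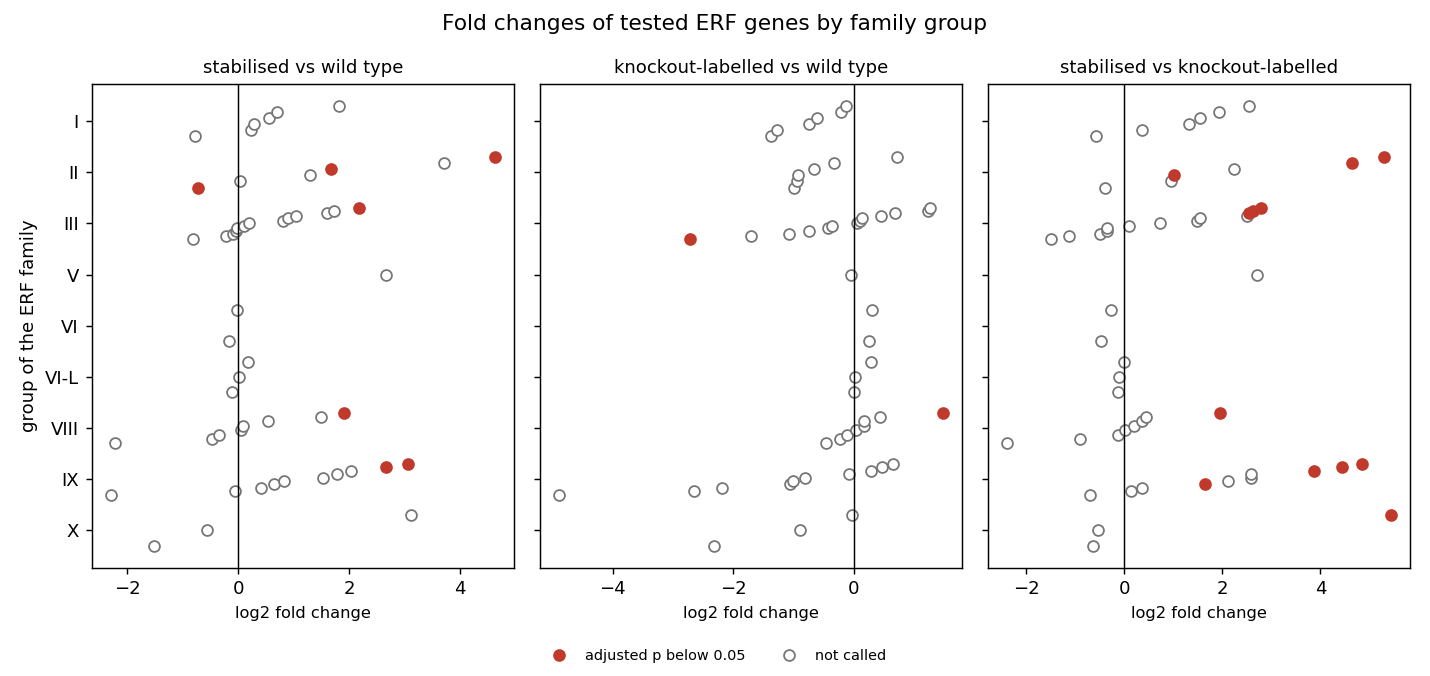
Log2 fold change (horizontal axes) of tested ERF genes by family group (rows) in the 3 comparisons named above the panels, tested line over its reference; filled points passed an adjusted p of 0.05, and ERF105 and ERF019 are left out because few of their reads are unique. Filled points lie mostly right of 0 in both panels of the stabilised line, and the middle panel has 1 on either side.

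The stabilised libraries had the widest range of summed level. Their summed level over the 74 members was 1437, 1155 and 868 RPKM, against 783, 784 and 703 RPKM in the knockout-labelled leaves and 598, 791 and 783 RPKM in the wild type. Of the 54 tested members, 20 had their highest value in stabilised replicate 2 and 7 in stabilised replicate 1. Replicate 1 held the peaks of ERF104, a substrate of MPK6 in the response to bacterial flagellin, and of its relatives ERF5 and ERF6. ERF104 stood at 229, 49.5 and 44.2 RPKM in the stabilised leaves, 21.8, 34.7 and 25.1 RPKM in the knockout-labelled leaves and 6.71, 21.3 and 51.5 RPKM in the wild type. It was not called by edgeR in any comparison (adjusted p = 0.121 between the lines). ERF5 stood at 76.2, 14.8 and 13.8 RPKM, against 5.40, 6.43 and 7.10 RPKM in the knockout-labelled leaves, at a log2 fold change of 2.59 that did not pass (adjusted p = 0.0587).

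Replicate 2 held the peaks of 4 of 6 tested members in each of groups I and II. ERF011, the repressor DEAR1, stood at 19.98, 46.9 and 12.2 RPKM in the stabilised leaves, and ERF054 of group I stood at 1.94, 7.76 and 1.53 RPKM. ERF003, the only group V member, stood at 0.472, 19.6 and 30.6 RPKM, so that replicate 1 was the lowest of all 9 libraries and the other two were the highest. In the wild type, replicate 1 stood apart from the others. ERF061 of group I was at 2.74 RPKM there, against 20.5 and 30.9 RPKM in wild type replicates 2 and 3, and ERF107, ERF104 and ERF109 were also lowest there within the group. ERF038, ERF034 and ERF023 of group III were highest there within the group, at 5.90, 33.1 and 15.2 RPKM.

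**Figure D4:**
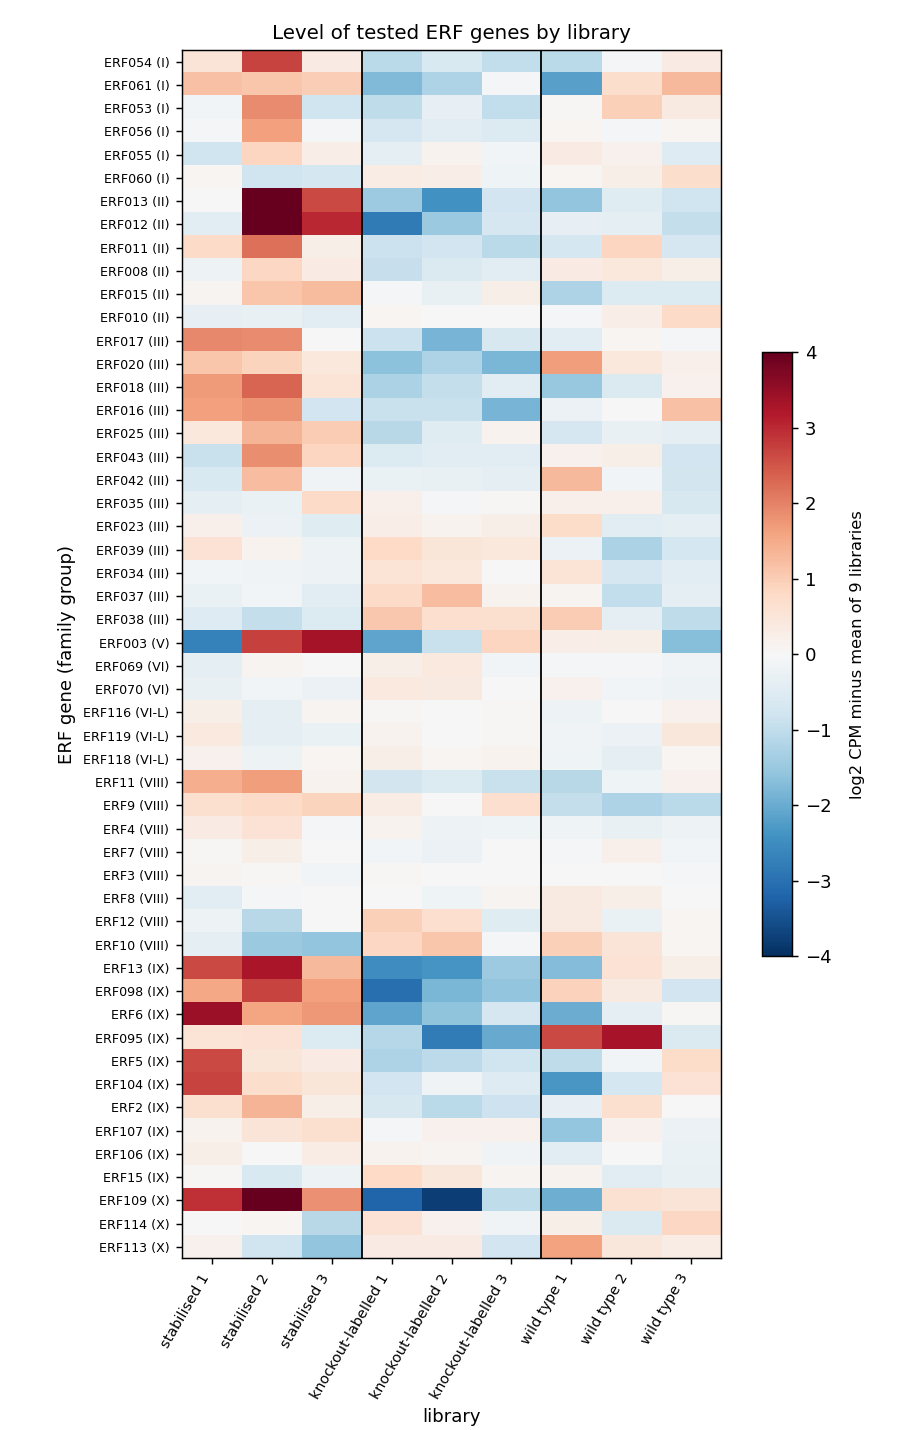
Depth-scaled log2 count of each tested ERF gene (rows, family group in brackets) minus its mean over the 9 libraries (columns), red above and blue below the mean; ERF105 and ERF019 are left out. The stabilised columns are red and the knockout-labelled ones blue for ERF13, ERF109 and ERF6, ERF113 and ERF114 of group X do not follow ERF109, and stabilised replicates 1 and 2 peak in different rows.

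Members lie next to each other on a chromosome, with no other gene of the table between them, in 4 places. ERF107 (chromosome 5, 24764256 to 24765511) and ERF104 (24766344 to 24767732) are separated by 832 bases, and the highest library was 4.27 times the lowest for the first and 34.1 times for the second. ERF095 (chromosome 3, 8287942 to 8288602) and ERF098 (8289379 to 8290164) are separated by 776 bases. ERF095 was highest in wild type replicates 1 and 2, whereas ERF098 was highest in the stabilised leaves. ERF12 and ERF11 on chromosome 1 are 2668 bases apart. ERF12, a repressor like its neighbour, stayed between 0.174 and 1.01 RPKM and gave -0.91 in stabilised against knockout-labelled leaves (adjusted p = 0.223), where ERF11 gave 1.96. ERF122 and ERF121 on chromosome 5 are 1776 bases apart and had 0 and 1 read in all.

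Some rows cannot be read as single genes. ERF105, known from cold tolerance, lies inside the span of AT5G51180, and none of its reads was unique. It was listed at 109.9, 6.91 and 0.893 RPKM in the stabilised leaves, at 0 in the knockout-labelled leaves and at 0, 0 and 15.5 RPKM in the wild type, so no fold change is given. ERF019 had 5.78% unique reads and shares 790 bases with AT1G05767. These 2 and ERF109 were the only members with under 90% unique reads among the 53 with at least 100 reads. ERF105 and ERF019 stay in the counts, medians and summed levels above. Between the lines both are among the 26 members upwards before adjustment and the 24 apart upwards. Without ERF105 the summed level of stabilised replicate 1 was 1327 RPKM.

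Another 20 members had too few reads to be tested. None of them had more than 46 reads over the 9 libraries, out of 319680551. The highest levels in any 1 library were 1.097 RPKM for ERF096, 0.364 RPKM for ERF027 and 0.345 RPKM for ERF14. They include ERF071, the hypoxia-induced gene HRE2, with 9 reads, and ERF115, known from stem cell division in roots, with 24. ERF024, ERF091, ERF117 and ERF122 had 0 reads, which allows up to 3 reads in the same total, a limit for counting error only.

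ACS6, an ACC synthase induced by wounding and stress, was the 1 gene of 9 tested for ethylene synthesis that edgeR and limma-voom called. DESeq2 called 4 higher in stabilised than in knockout-labelled leaves and 2 higher than in the wild type. It stood at 57.2, 32.9 and 32.6 RPKM in the stabilised leaves, against 13.6, 16.3 and 18.3 RPKM in the knockout-labelled leaves and 20.5, 17.8 and 24.0 RPKM in the wild type. It was higher than both, by 1.52 (SE 0.21, adjusted p = 0.0141) and by 1.04 (SE 0.21, adjusted p = 0.0223) on the log2 scale, with no overlap. Of 12 genes of perception and signalling, EBF2 and ETR2 were lower in the stabilised leaves. EBF2, an F-box protein that removes the ethylene transcription factor EIN3, fell by 0.61 against the knockout-labelled leaves (adjusted p = 0.0243) and by 0.78 against the wild type (adjusted p = 0.00569). ETR2, an ethylene receptor, fell by 1.03 (adjusted p = 0.0293) and by 0.77 (adjusted p = 0.0480). Both transcripts are known to be induced by ethylene. In knockout-labelled against wild-type leaves neither list had a call in edgeR; 0 of the signalling genes and 3 of the synthesis genes, all downwards, had an unadjusted p under 0.05, and DESeq2 called 0 and 1.

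Defence genes with GCC boxes, which include the PDF1.2 defensins, chitinase and osmotin, had no call in edgeR or limma-voom. Their summed level was 36.7, 142 and 393 RPKM in the stabilised leaves, 93.3, 38.2 and 161 RPKM in the knockout-labelled leaves and 3900, 5036 and 76.6 RPKM in the wild type. Wild type replicates 1 and 2 were high and replicate 3 was not, so the wild type overlapped both lines. The median log2 fold change of the 7 genes was -4.0 in the stabilised line and -5.26 in the knockout-labelled line, 5 had an unadjusted p under 0.05 downwards in each, and DESeq2 called 3 and 4 lower. In the knockout-labelled line the smallest p was that of PDF1.3, at -8.68 on the log2 scale (SE 2.23, adjusted p = 0.0959).

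AP2/ERF genes listed under other names gave 7 of 22 tested higher in the stabilised leaves and 5 of 22 higher in the knockout-labelled leaves against the wild type, and 4 of 22 higher between the lines. Of the 22, DREB1A had the smallest p in both lines against the wild type. DREB1A stood at 10.4, 6.91 and 7.71 RPKM in the stabilised leaves, 5.34, 5.30 and 4.65 RPKM in the knockout-labelled leaves and 0.234, 0.285 and 0.391 RPKM in the wild type. Both lines were far above the wild type, by 4.84 (SE 0.21, adjusted p = 3.1e-05) and 3.94 (SE 0.20, adjusted p = 0.000541). DREB1B, DREB2B and DREB1C were higher in the stabilised leaves by 4.44, 2.96 and 3.60. In stabilised against knockout-labelled leaves ERF1A and DDF1 were higher by 2.49 (adjusted p = 0.0134) and 6.19 (adjusted p = 0.0141). SHN2, an activator of wax synthesis, was higher in knockout-labelled than in wild-type leaves by 2.14 (adjusted p = 0.0339).

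The same libraries also differed in genes of rapid wound and touch responses, and the part of this in the ERF results was not tested. Of 25 such genes, edgeR called 18 higher in stabilised than in knockout-labelled leaves and 4 higher in stabilised than in wild-type leaves. Limma-voom called 9 and 4 higher in the same order, and DESeq2 called 22 and 13. The median log2 fold changes of the 25 genes were 2.88 and 1.62, with 0 lower in either. In knockout-labelled against wild-type leaves edgeR and limma-voom called 0, DESeq2 called 9 lower, 11 had an unadjusted p under 0.05 downwards, and the median was -1.26. Their summed level was 2507, 3449 and 1555 RPKM in the stabilised leaves, 599, 661 and 589 RPKM in the knockout-labelled leaves and 744, 1545 and 1038 RPKM in the wild type. The stabilised libraries were highest and the knockout-labelled ones lowest, although stabilised replicate 3 and wild type replicate 2 were close. LOX4, of jasmonate synthesis, was 3.60 higher on the log2 scale in stabilised than in knockout-labelled leaves (SE 0.53, adjusted p = 0.0160), WRKY40 was 3.70 higher (adjusted p = 0.0181), the jasmonate repressor genes JAZ7 and JAZ1 were 6.43 and 3.14 higher (adjusted p = 0.0185 and 0.0221), and against the wild type the touch gene TCH4 was 5.42 higher (adjusted p = 0.0178).

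**Figure D5:**
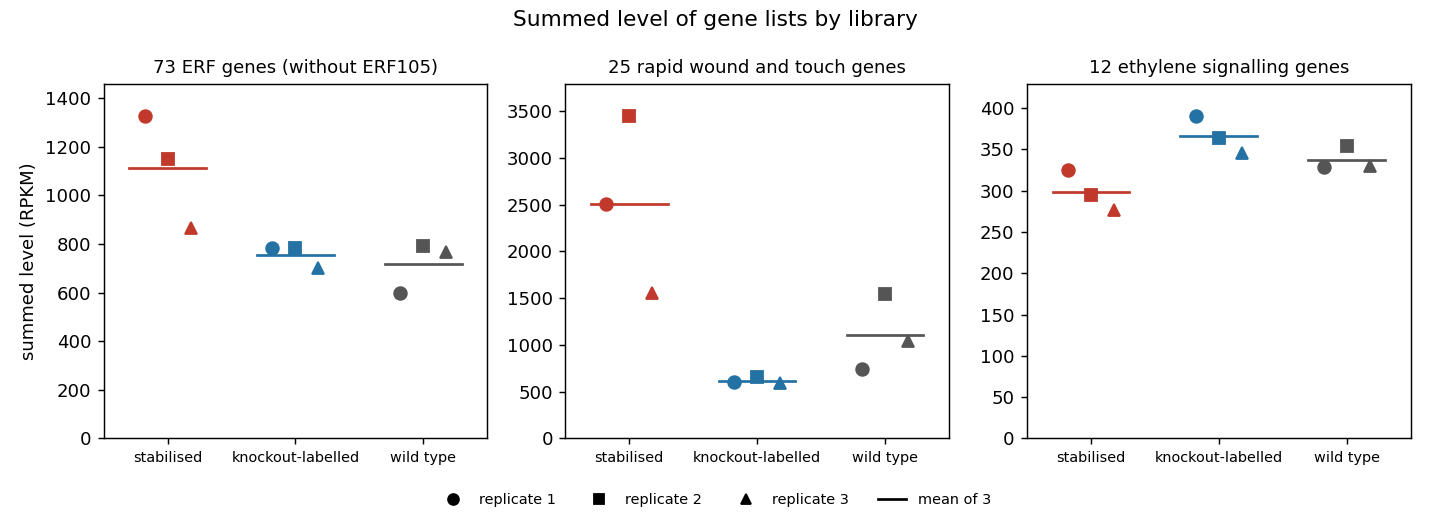
Summed level in RPKM (vertical axes, from 0) of 73 ERF genes without ERF105, of 25 rapid wound and touch genes and of 12 ethylene signalling genes, by group; points are libraries, marker shapes are replicate numbers and bars are means of 3. The stabilised libraries are highest in the first 2 panels and have the lowest mean in the third.

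Clock genes moved as well, and no source used here gives the time of day of the harvest. In the stabilised leaves 7 of 10 were higher and 2 lower than in the wild type, led by PRR5 at 4.93 (SE 0.18, adjusted p = 1.89e-05) and LHY at -3.71 (SE 0.26, adjusted p = 0.000472). In the knockout-labelled leaves 2 were higher and 1 lower, with PRR5 at 2.76 (SE 0.17, adjusted p = 0.000837) and LHY at -1.99 (SE 0.25, adjusted p = 0.0175). The 3 epidermal markers GL2, MYB60 and FAMA were lower in stabilised than in knockout-labelled leaves, with summed levels of 15.8 to 18.3 RPKM against 26.3 to 37.3 RPKM, and fewer cells of a type cannot be told apart from less RNA per cell in whole leaves. Vascular and hypoxia genes had no call in edgeR in any comparison. Before adjustment, 3 hypoxia genes were upwards under 0.05 in each line against the wild type and 1 between the lines, and DESeq2 called 2 and 1 in the stabilised and knockout-labelled lines and 1 between them. Vascular markers had 0 calls in DESeq2 too, and 1 gene downwards between the lines before adjustment. The part of the clock and of the tissue markers in the ERF results was not tested.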

How the data were processed

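Leaf RNA of 9 libraries in 3 groups was sequenced, after RNeasy extraction and NEB Next Ultra library preparation per the labels' protocols. The authors deposited 1 table with, per the file headers, counts of total and unique exon reads, gene reads and intron reads per gene, and RPKM values. The RPKM values equalled total exon reads per kilobase of exon divided by 1 constant per library, within 1%, for the 17812 to 18778 genes checked per library. Per the submitters' processing notes, the genome was TAIR10; no source used here names the aligner, the counter, their settings or the use of strand. Spans of 74 of the 74 members equalled those of RefSeq's TAIR10.1 annotation.

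Total exon read counts were tested with edgeR 4.0.16 in R 4.3.3 (TMM, filterByExpr with a minimum count of 10, glmQLFit and glmQLFTest), with all 9 libraries in 1 fit and no covariate, which left 19409 genes and 6 residual degrees of freedom. P-values were adjusted by Benjamini-Hochberg over all genes tested, and a gene was called at 0.05. Fold changes are log2, first group over second; the SE is the fold change over the square root of F. Groups were called apart when all 3 values of one lay above all 3 of the other. Alternatives were DESeq2 1.42.0, limma-voom 3.58.1, unique reads, no filter, library totals, 2 groups only, a replicate block and each library left out. The fit was tested on simulated data.

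Members and gene lists were chosen with earlier results of these data known. Named are all called members, the 10 with the smallest p per comparison, the 8 most abundant, neighbours, and up to 4 called genes per list and comparison. ERF104, ERF5, ERF003, ERF011, ERF054, ERF061, ERF038, ERF034, ERF023, ERF071 and ERF115 were named after their values were seen, where the rule did not name them. No table column of per-sample values was left unmatched.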

Additional observations from a re-analysis of the deposited data

Results flagged for a closer look

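For 11 ERF genes the effect against the wild type differed between the 2 lines, with fitted values above 0 in the stabilised leaves and below 0 in the knockout-labelled leaves. The difference of the 2 effects equals the stabilised over knockout-labelled log2 fold change, because the wild type drops out, and it passed an adjusted p of 0.05 in edgeR for each of the 11. It was 5.45 for ERF109, 5.29 for ERF013, 4.85 for ERF13, 4.65 for ERF012, 4.45 for ERF098, 3.87 for ERF6, 2.80 for ERF017, 2.55 for ERF018, 1.96 for ERF11, 1.65 for ERF2 and 1.01 for ERF008. The test is of the difference alone and not of opposite directions. The 11 were picked by passing it, which by itself favours wild-type values in between. The share over all genes called between the lines was not computed. Against the wild type edgeR called none of the 11 in the knockout-labelled line and 4 in the stabilised line (ERF6, ERF018, ERF013 and ERF13), and for ERF008 the stabilised value was 0.03.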

How the results depend on the processing

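Of 512 values recomputed for 32 pairs of a named member and a comparison, 343 kept their direction and their side of the threshold, 153 lost the call, 16 gained one and 0 reversed. The 343 include pairs that were not called and stayed so, and all 153 losses fell on called pairs. Between the lines, the called members kept their call in 5 of 16 alternatives for ERF012 and ERF013, the fewest. ERF008 kept it in 6 and ERF098 in 14, the most. Unique reads and no filter moved no family count by over 1.5 times. DESeq2 called 2 higher and 7 lower in knockout-labelled against wild-type leaves, 15 and 3 in stabilised against wild-type leaves, and 23 and 4 in stabilised against knockout-labelled leaves. Limma-voom called 0 lower in the first 2 of these comparisons and 5 higher in the third. With only the 2 groups compared in the fit the counts were 0 higher, then 1 higher and 0 lower, then 7 higher and 1 lower. With library totals alone 1 member was lower in stabilised against knockout-labelled leaves; that scaling moved the median of all genes by 0.12, -0.07 and -0.19 in the 3 comparisons, and gave 635 higher and 876 lower genes between the lines in place of 945 and 406, and 204 higher and 94 lower in knockout-labelled against wild-type leaves in place of 180 and 142. The cause of these differences was not tested.

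Deviations from the group means correlated at -0.44 to 0.52 between same-numbered libraries and at -0.6 to 0.54 between differently numbered ones. In stabilised against knockout-labelled leaves, replicates 1 and 3 gave 0.492 and 0.516 with their own number, and replicate 2 gave -0.257. Deviations among 3 libraries depend on each other, so these values cannot settle whether the numbers pair the libraries. With the replicate block the counts were 0 higher and 0 lower in knockout-labelled against wild-type leaves, 3 higher in stabilised against wild-type leaves and 1 lower in stabilised against knockout-labelled leaves. The block's count of members higher between the lines is not given here. Of the 32 named pairs of a member and a comparison, 12 lost their call with the block. Leaving out 1 library in turn gave 0 to 1 higher, 0 to 2 lower and a median of -0.34 to -0.14 in knockout-labelled against wild-type leaves. It gave 1 to 10 higher, 0 to 3 lower and a median of 0.28 to 0.66 in stabilised against wild-type leaves. In stabilised against knockout-labelled leaves it gave 0 to 20 higher, 0 to 3 lower and a median of 0.35 to 1.05. Over the whole table the same fits called 10 to 261 genes higher and 0 to 285 lower in the first of these comparisons. They called 394 to 1998 higher and 190 to 1788 lower in the second, and 3 to 2825 higher and 0 to 2416 lower in the third. Depth limits the rarer members: ERF098 had 2 to 165 reads per library and ERF017 had 4 to 60.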
